A study of Mus musculus with 2 samples.

Results

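The genes described here encode shelterin and the CST complex, the proteins that sit on telomeric DNA. They were taken by symbol from the deposited table of PB and PB-TERRA mESCs, and all 10 of 10 listed genes were found among its 18888 genes. Stn1 stands in the table under its older symbol Obfc1. PB mESCs are 46C mouse embryonic stem cells, a line with a GFP reporter at the neural gene Sox1, that carry the empty PiggyBac (PB) vector. PB-TERRA mESCs are 46C cells that overexpress polyadenylated telomeric repeat-containing RNA (TERRA) from the same vector, which inserts stably into the genome. Both were grown on gelatin in mouse ESC medium at passages 21 to 24, and the RNA of each line gave 1 sequencing library. No spread between cultures can be estimated, so every comparison is between 2 libraries, and whether a line is 1 clone or a pool is not given in the sources used here.

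Shelterin coats the double-stranded TTAGGG repeats of the chromosome end and hides that end from the DNA damage response. Terf1 and Terf2 bind the double-stranded repeats, Tinf2 bridges them, Acd links Tinf2 to the proteins that bind the single-stranded overhang, and Terf2ip is carried by Terf2. The mouse has a pair of overhang-binding genes, Pot1a and Pot1b, where humans have a single POT1. CST, made of Ctc1, Stn1 and Ten1, also binds single-stranded DNA and brings DNA polymerase alpha-primase to the end to fill in the strand opposite the one that telomerase extends. TERRA is transcribed from the chromosome end and holds the same repeat as RNA, and both Terf1 and Terf2 are known to interact with it. The comparison therefore addresses whether the transcripts of the telomere-binding proteins differ when TERRA is overexpressed.

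Values are FPKM (fragments mapped to a gene, scaled by its length and by the size of the library), and the read numbers behind them were estimated from FPKM and gene length. The libraries held an estimated 24500000 (PB) and 24720000 (PB-TERRA) reads. All 10 embryonic stem cell markers examined were present in both libraries, from 27.02 to 1162.5 FPKM in PB and from 34.08 to 1039.92 in PB-TERRA. Summed levels of the markers of other cells were 19.72 and 23.9 FPKM in PB and PB-TERRA for 8 fibroblast genes, 10.5 and 14.65 for 7 primitive endoderm genes, 86.66 and 74.5 for 5 neural genes, 33.18 and 33.04 for 5 trophoblast genes, and 3.91 and 1.73 for 8 markers of 2-cell-like cells, an uncommon subset of ESC cultures. Of those that reached 1 FPKM in a library, 3 of 4 fibroblast and 5 of 5 primitive endoderm genes were higher in PB-TERRA, as were 3 of 4 trophoblast genes (Hand1 at 1.36 and 2.65 FPKM, Cdx2 at 1.19 and 2.13, while the more abundant Tfap2c had 21.93 and 18.6). Of the neural genes 2 of 3 were lower, Nes (27.3 and 20.93 FPKM) and Tubb3 (57.66 and 51.48), which make up most of the sum. Sox1 was higher (1.06 and 1.56 FPKM), and Pax6 and Neurog2 were below 1 FPKM in both libraries. The part of these cells in the results below was not tested. In such bulk libraries fewer cells that express a gene and less RNA per cell cannot be told apart.

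The sequences show which of these genes can be told apart by short reads. Pot1a and Pot1b arose by duplication, and their coding sequences, each of 1920 bases in GENCODE M21 (mouse build GRCm38), were identical at 78.8% of 1917 aligned bases. Their most similar 60 bases, coding positions 463 to 522, lie at chr6:25775549-25775608 in exon 7 of Pot1a and at chr17:55695051-55695110 in exon 6 of Pot1b, both on the minus strand. Capitals mark the bases that differ between the pair.
Pot1a: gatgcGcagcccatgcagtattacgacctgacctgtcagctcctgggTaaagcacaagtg
Pot1b: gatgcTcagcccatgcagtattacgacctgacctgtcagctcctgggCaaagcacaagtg
The longest identical run between them, 41 bases, lies in this stretch. Of the 50-base stretches of the protein-coding Pot1a transcripts, 0 of 4175 occurred in a transcript of another gene. For Pot1b the number was 72 of 3839 (1.88%), none of them shared with Pot1a. The least similar 60 bases, coding positions 947 to 1006 across the junction of exons 10 and 11 of Pot1a and of exons 9 and 10 of Pot1b, differed at 22 positions.
Pot1a: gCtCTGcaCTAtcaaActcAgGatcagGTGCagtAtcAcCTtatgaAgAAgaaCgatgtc
Pot1b: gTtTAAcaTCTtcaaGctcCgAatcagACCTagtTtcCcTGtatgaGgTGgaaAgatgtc

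Terf1 and Terf2 are more distant relatives, and 63.1% of 1238 aligned coding bases were identical. Their most similar 60 bases lie at the end of the coding sequence, which encodes the Myb-type domain that binds the telomeric repeat. This stretch is in exon 10 of each gene, at chr1:15843003-15843062 on the plus strand for Terf1 and at chr8:107070424-107070483 on the minus strand for Terf2, and capitals again mark the 20 differing bases.
Terf1: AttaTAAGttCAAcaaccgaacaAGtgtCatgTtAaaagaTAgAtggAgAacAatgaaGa
Terf2: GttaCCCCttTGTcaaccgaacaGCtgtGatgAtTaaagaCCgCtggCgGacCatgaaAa
Of the 50-base stretches of Terf1, 26 of 2267 (1.15%) occurred in another gene, and of those of Terf2, 0 of 3882. The TTAGGG unit in tandem, which reads from TERRA would hold, was found on neither strand of any protein-coding transcript of the 10 genes (0 matches). Terf2, Acd and Terf2ip all lie on chromosome 8, Ctc1 and Ten1 on chromosome 11, and Tinf2 and Obfc1 on chromosomes 14 and 19.

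Exons of Tinf2, Acd, Obfc1 and Terf2ip overlap those of a gene on the opposite strand in this annotation. The library kit does not mark strand, so reads from the overlapping parts cannot be told apart. Tinf2 shares 1540 of its 4938 exonic bases (31.2%) with Gmpr2, which had 16.41 and 16.74 FPKM in the libraries. Acd shares 1208 of 3625 (33.3%) with Carmil2, listed as Rltpr, at 2.35 and 2.87 FPKM. For Obfc1 and Terf2ip the shared part was 3.07% and 2.18%. These shares are over the exons of all annotated transcripts of a gene. The deposited gene lengths are shorter, 1754 bases for Tinf2 and 1467 for Acd. How much of the overlap lies in the bases counted there is not known.

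All 10 genes were expressed, and their levels spanned 8.64-fold in PB (95% interval 7.84 to 9.55) and 7.72-fold in PB-TERRA (7.0 to 8.55), from Pot1b to Terf1. Terf1 was the most abundant in both libraries, at 49.59 FPKM in PB, higher than 85.7% of the 12263 genes that reached 1 FPKM in either library, and at 43.47 FPKM in PB-TERRA. Ctc1, the largest subunit of CST, came next (30.38 and 28.69 FPKM), followed by Tinf2 (27.58 and 25.07). Obfc1 had 21.57 and 19.99 FPKM and Terf2 had 20.66 and 21.91, so this pair changed places. In PB their ratio, 1.04, had a counting interval that included 1 (0.96 to 1.14), and in PB-TERRA the ratio of Terf2 to Obfc1 was 1.10 (1.01 to 1.19). Below them stood Acd (16.16 and 16.09 FPKM), Pot1a (12.72 and 11.22), Ten1 (9.88 and 8.80), Terf2ip (6.26 and 6.31) and Pot1b (5.74 and 5.63). The order was otherwise the same in both libraries, and Terf2ip and Pot1b did not differ beyond counting error in either (ratio 1.09, 0.963 to 1.24, and 1.12, 0.99 to 1.27). All other neighbours in the order differed beyond it.

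**Figure D1:**
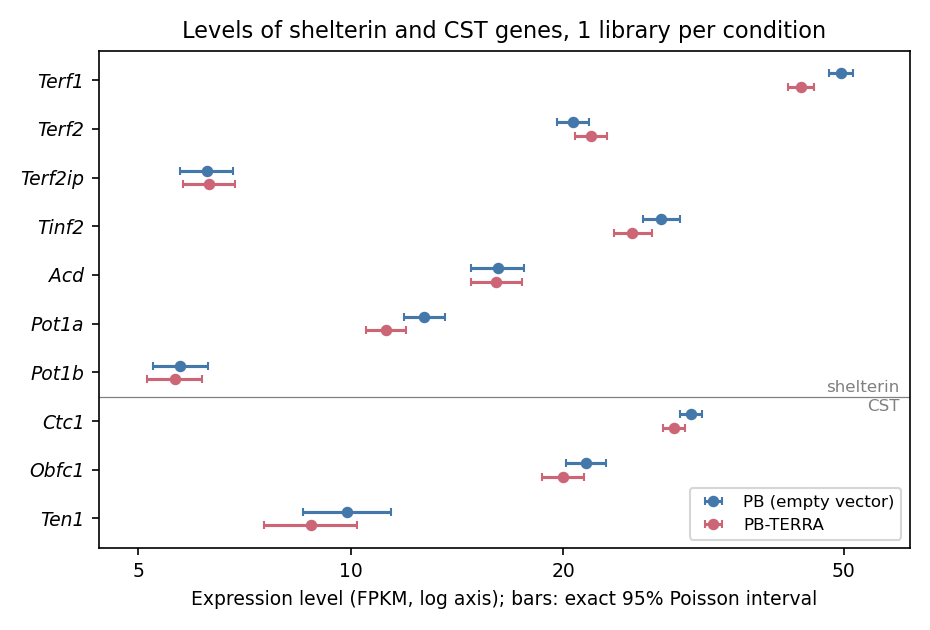
Level of each gene in FPKM (log axis) in the PB library and the PB-TERRA library; points are the deposited values and bars the exact 95% Poisson interval of the estimated reads. Terf1 is highest in both libraries, at 49.59 and 43.47 FPKM, and Pot1b lowest, at 5.74 and 5.63.

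None of the 10 genes differed between the libraries by a log2 ratio of FPKM + 0.1 of at least 1 (0 of 10), nor by one of at least 0.5 (0 of 10). Over the 12263 genes past the filter of 1 FPKM, 0.913% reached the first limit and 4.67% the second. Of the 10 genes, 8 were lower and 2 were higher in PB-TERRA, where 50.9% of all genes were lower. Their median log2 ratio was -0.10, beside -0.0044 for all genes. With both libraries rescaled to the same sum of FPKM, 6 were lower and 4 higher, since Acd (0.032) and Pot1b (0.010) turned, and the median was -0.058 beside 0.0334 for all genes. The 95% interval of the reads lay below 0 for 4 of the 10, Terf1, Pot1a, Tinf2 and Ctc1 (17.5% of all genes), and above 0 for none of them (18.2% of all genes). After the rescaling it lay below 0 for 2, Terf1 and Pot1a (12.2% of all genes), and above 0 for 1, Terf2 (24.9%), so that Tinf2 and Ctc1 were no longer beyond counting error. Every interval lay between -0.47 and 0.19 on the log2 scale without it. These intervals are exact (Clopper-Pearson) and cover counting error only.

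**Figure D2:**
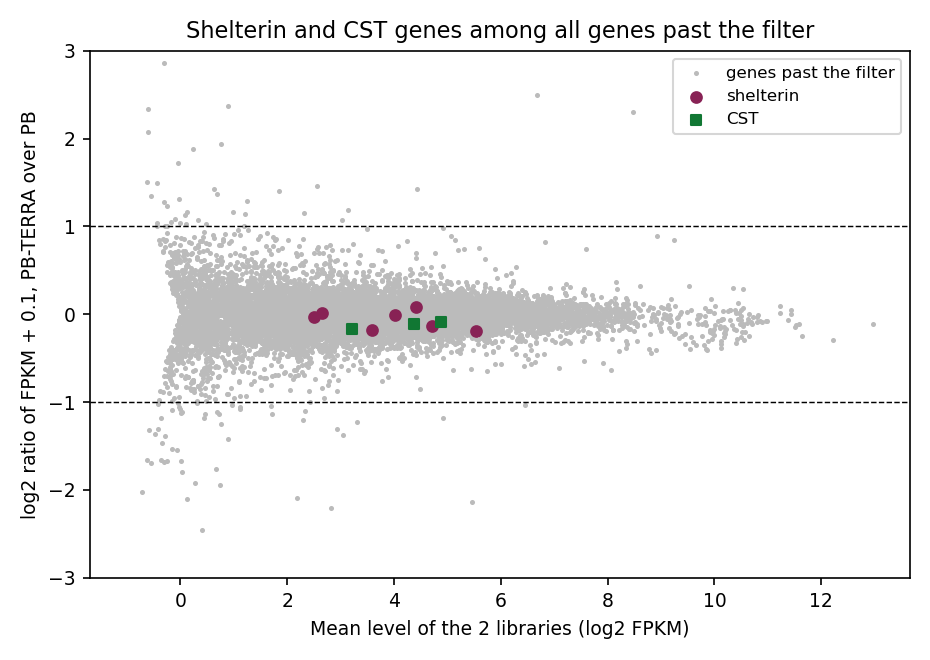
Log2 ratio of FPKM + 0.1, PB-TERRA over PB, against the mean level of both libraries (log2 FPKM) for genes past the filter (grey), shelterin (circles) and CST (squares); dashed lines mark ratios of 1 and -1, and 22 genes lie outside the plotted range. The 10 genes lie within the main cloud, between -0.19 and 0.08.

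Terf1 showed the largest difference of the 10. It fell by 12.3%, from 49.59 to 43.47 FPKM, or from an estimated 2610 reads to 2308. The log2 ratio of the reads was -0.19 with an interval of -0.27 to -0.11. In a two-sided exact binomial test of the reads, which compares the libraries and not the conditions, the Benjamini-Hochberg adjusted p over all genes was 4.82e-05. A difference of this size was common between the libraries, since 17.3% of the 8496 genes of at least 5 FPKM in both had a larger one in either direction. Terf2 stood at 20.66 FPKM in PB and 21.91 in PB-TERRA, from 1348 and 1443 reads. Its log2 ratio of 0.08 had an interval that included 0 (-0.02 to 0.19, exact test, adjusted p = 0.265). With each library rescaled to the same sum of FPKM, which raises every log2 ratio by 0.038, this interval no longer included 0. The ratio of Terf1 to Terf2, which does not depend on the scaling of the libraries, was 2.40 in PB (2.25 to 2.57) and 1.98 in PB-TERRA (1.86 to 2.12). The log2 change of that ratio was -0.28, with an interval of -0.41 to -0.14 that covers counting error only. Terf1 and Terf2 had the lowest and highest log2 ratios of the 10, so no other pair of them differed more. Among the genes of at least 5 FPKM in both libraries the log2 ratios had an SD of 0.172. Terf1 held 35.8% of the summed FPKM of shelterin in PB and 33.5% in PB-TERRA, and Terf2 held 14.9% and 16.9%. Terf2ip, the partner of Terf2 also known as Rap1, had 6.26 and 6.31 FPKM, with a log2 ratio of 0.01 (-0.16 to 0.19).

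**Figure D3:**
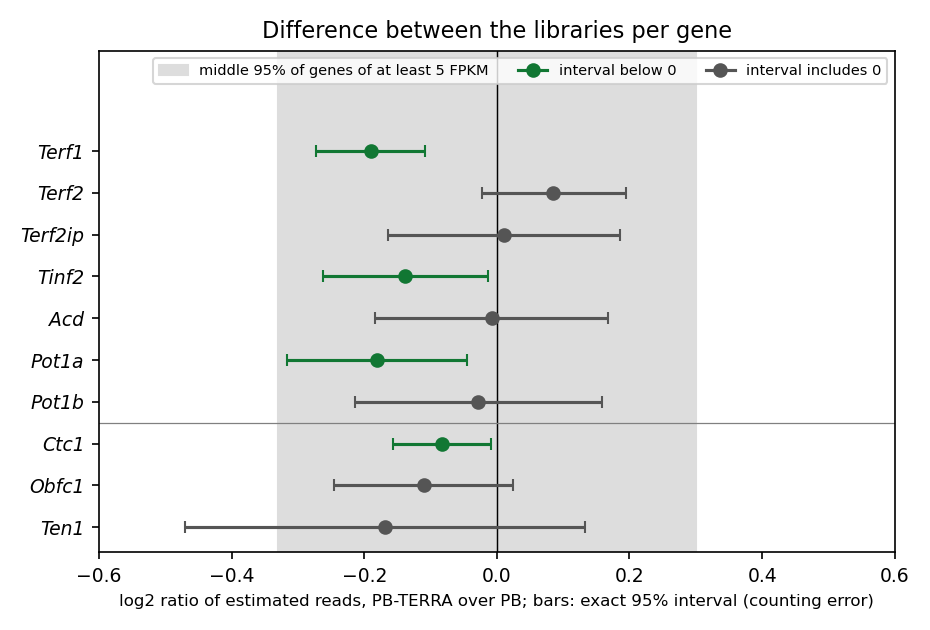
Log2 ratio of the estimated reads, PB-TERRA over PB, for each gene with its exact 95% interval; green marks intervals below 0, and the grey band holds the middle 95% of genes of at least 5 FPKM in both libraries (-0.33 to 0.30). The intervals of Terf1, Tinf2, Pot1a and Ctc1 lie below 0 (those of Tinf2 and Ctc1 not after rescaling to the same sum of FPKM), and all 10 points lie inside the band.

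Tinf2 and Acd join the double-strand binders to the overhang binders. Tinf2 went from 27.58 FPKM to 25.07 (1110 and 1018 reads), with a log2 ratio of -0.14 and an interval of -0.26 to -0.01. The adjusted p was 0.0901, above 0.05. Acd, the protein TPP1 that also recruits telomerase, had 16.16 and 16.09 FPKM, and its log2 ratio of -0.008 had an interval of -0.18 to 0.17. The ratio of Tinf2 to Acd was 1.71 in PB (1.54 to 1.89) and 1.56 in PB-TERRA (1.4 to 1.73), so the intervals overlapped.

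Pot1a, which represses the ATR damage signal at the overhang, fell from 12.72 to 11.22 FPKM (948 and 844 reads). Its log2 ratio was -0.18 (-0.32 to -0.05), with an adjusted p of 0.0337 in the same exact binomial test. Pot1b, which limits the resection of the overhang, had 5.74 and 5.63 FPKM from 480 and 475 reads, and its log2 ratio of -0.03 had an interval of -0.21 to 0.16. Pot1a was thus 2.22-fold more abundant than Pot1b in PB (1.99 to 2.48) and 1.99-fold in PB-TERRA (1.78 to 2.24). The log2 change of this ratio, -0.15, had an interval that included 0 (-0.38 to 0.08), so a different change of both genes was not detectable at this depth. Terf1 and Pot1a were the 2 of the 10 genes with an adjusted p of at most 0.05, and both were lower in PB-TERRA. Over all genes, 12.9% were lower at that limit.

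All 3 CST genes had values below 0. Ctc1 had 30.38 and 28.69 FPKM in PB and PB-TERRA (3028 and 2885 reads), with a log2 ratio of -0.08, an interval of -0.16 to -0.009 and an adjusted p of 0.0887. Obfc1, which contacts the polymerase alpha-primase, had 21.57 and 19.99 FPKM, with a log2 ratio of -0.11 (-0.25 to 0.02). Ten1, the smallest subunit and the gene with the fewest reads (196 and 176), had 9.88 and 8.80 FPKM, and its log2 ratio of -0.17 had the widest interval, -0.47 to 0.13. Within CST the transcripts were not equal. Ctc1 was 1.41-fold above Obfc1 in PB (1.31 to 1.52) and 1.44-fold in PB-TERRA (1.33 to 1.55), and 3.07-fold (2.66 to 3.56) and 3.26-fold (2.80 to 3.81) above Ten1. The summed reads of CST had a log2 ratio of -0.09 (-0.16 to -0.03), and those of the 7 shelterin genes one of -0.09 (-0.14 to -0.04). With the libraries rescaled to the same sum of FPKM the interval of CST included 0 (-0.055, -0.118 to 0.008), and that of shelterin did not (-0.053, -0.099 to -0.006). Terf1 gave 2610 of the 7568 shelterin reads in PB and 2308 of 7171 in PB-TERRA. Ctc1 gave 3028 of the 4158 CST reads in PB and 2885 of 3934 in PB-TERRA. The sums thus weigh these genes most and need not hold for the rest of each complex, which was not tested. The change of one sum relative to the other was -0.002, with an interval of -0.08 to 0.08.

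**Figure D4:**
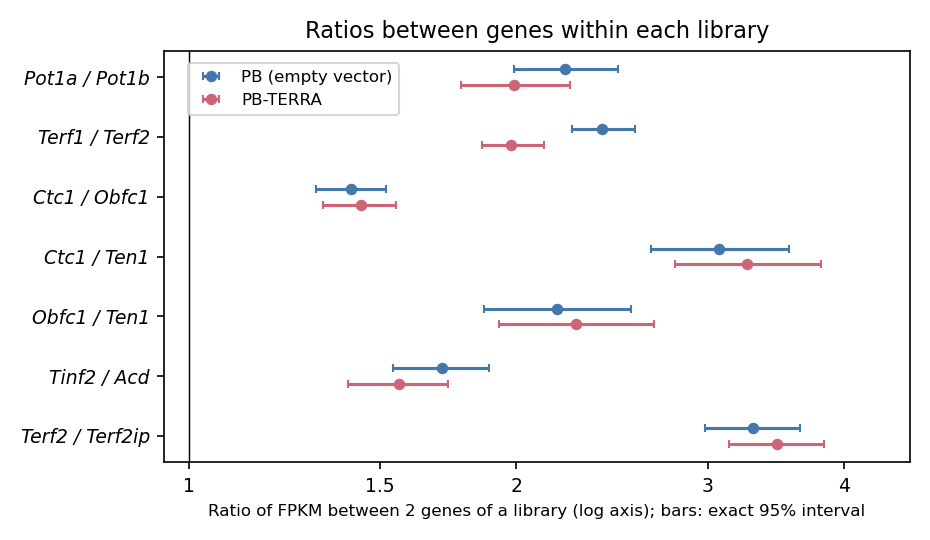
Ratio of FPKM between pairs of genes within each library (log axis) with exact 95% intervals of the reads, for PB and PB-TERRA. Of the 7 pairs, only the intervals of Terf1 to Terf2 do not overlap between the libraries (2.25 to 2.57 and 1.86 to 2.12). These genes had the lowest and highest log2 ratios of the 10.

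Other genes of the chromosome end were taken from lists of known partners. Among the 4 polymerase alpha-primase subunits that CST recruits, Pola2 fell from 36.14 to 32.02 FPKM (log2 ratio -0.17, exact test, adjusted p = 0.00132) and Pola1, the catalytic subunit, rose from 13.98 to 15.60 (0.16, adjusted p = 0.00475). The primase subunits Prim1 and Prim2 had log2 ratios of -0.06 and -0.05. Of 35 further proteins that act at telomeres, 34 passed the filter, 18 higher and 16 lower, with a median log2 ratio of 0.006, and 0 of them reached a log2 ratio of 1. The exact binomial test called 4 of them lower and 2 higher at an adjusted p of at most 0.05, where it called 12.9% of all genes lower and 13.9% higher. Lowest were Ercc1, a nuclease subunit that trims overhangs (33.42 and 26.20 FPKM, log2 ratio -0.35, exact test, adjusted p = 4.48e-05), and Zbtb48, a zinc finger protein that binds telomeric repeats (6.50 and 5.34 FPKM, -0.28, adjusted p = 0.0562). Highest were Rpa3, a subunit of the single-strand binding protein RPA (33.14 and 37.86 FPKM, 0.19, exact test, adjusted p = 0.127), and Rif1, a replication timing factor (53.90 and 60.73 FPKM, 0.17, adjusted p = 5.14e-19).

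Of 10 telomerase genes 9 passed the filter, 7 lower and 2 higher in PB-TERRA, with a median log2 ratio of -0.08, and the same test called 3 lower and 0 higher (12.9% and 13.9% of all genes). Nhp2, a protein of the telomerase RNP, had 213.0 and 184.03 FPKM (log2 ratio -0.21, exact test, adjusted p = 2.89e-10), Wrap53, which guides telomerase to Cajal bodies, 17.10 and 15.60 (-0.13), and Naf1 and Nop10 both had a log2 ratio of 0.08. Terc, the telomerase RNA, did not pass the filter, with 0.86 and 0.14 FPKM from 6 and 1 reads, a log2 ratio of the reads of -2.60 whose interval included 0 (-8.12 to 0.45). All 6 genes of the meiotic telomere complex were in the table, some of them under an older symbol. The meiotic proteins Terb1, Terb2, Majin and Kash5 were below 1 FPKM in both libraries. Sun1 and Sun2, nuclear envelope proteins with other roles as well, had log2 ratios of -0.17 (exact test, adjusted p = 0.000266) and 0.15.

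**Figure D5:**
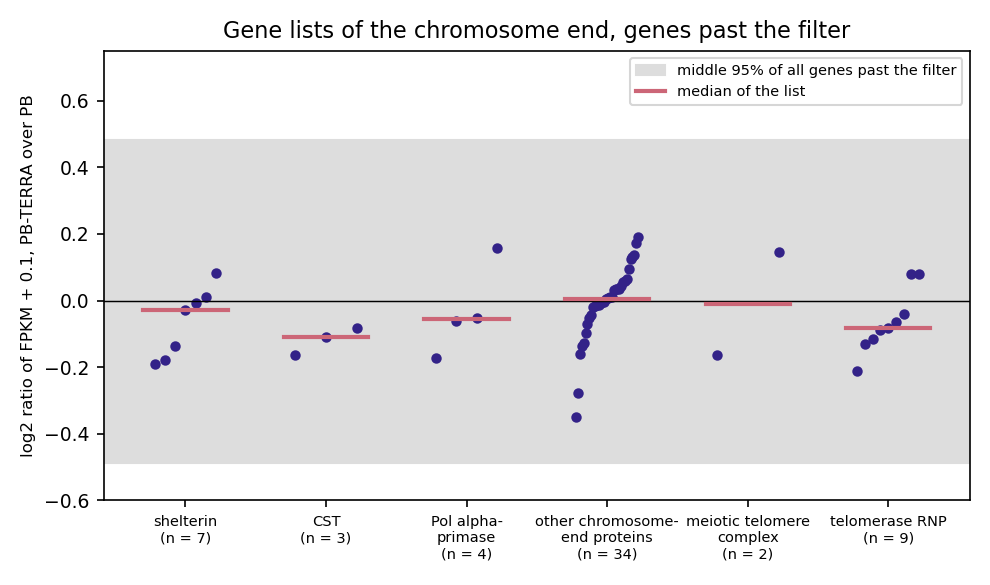
Log2 ratio of FPKM + 0.1, PB-TERRA over PB, for the genes past the filter in each list, with the list's median (red) and the middle 95% of all genes past the filter (grey, -0.49 to 0.48). All listed genes lie inside the band, from Ercc1 at -0.35 to Rpa3 at 0.19.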

How the data were processed

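The authors sequenced 1 RNA library of PB mESCs and 1 of PB-TERRA mESCs. The authors deposited 1 table of 18888 genes, whose expression values are read as FPKM from their behaviour, since the header names no unit; values are rounded to 2 decimals with a floor of 0.01. The submitters' processing notes list HISAT, Cufflinks and mm9 without roles; the annotation is not given in the sources used here. The table's fold changes, p-values and calls are the authors' own comparison and were not used.

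FPKM of short genes fall on steps of 1 read. The library totals and a length offset of 111 bases (why it is needed is not known) were those that bring low values of genes under 700 bases closest to whole reads; 81.2% of 325 (PB) and 80.6% of 351 (PB-TERRA) values came within 0.15 of a whole read. Reads of all genes were then estimated, rounded, and compared by exact binomial tests (two-sided), adjusted by Benjamini-Hochberg over the 12263 genes that reached 1 FPKM in either library. The main measure is the log2 ratio of FPKM + 0.1 with no test and a threshold of 1, which understates changes of low genes. Scripts were tested on simulated data.

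All 10 members are named. Of the partner lists in the report, the 2 highest and 2 lowest past the filter are named. Of the marker lists, some that bear on the sums or on the counts of higher and lower genes are named. Genes of the gene ontology list were picked after their values were seen. Terc and the meiotic genes below the filter were named after their values were seen. Members and lists were chosen with earlier results of these data known. Sequences and positions come from GENCODE M21 (GRCm38), not the submitters' build. Proteins were not analysed here. One overlap of a member with another gene is not reported here. Tests were run in scipy 1.17.1 (Python 3.11.15, with pandas 2.3.3 and numpy 2.4.6), and figures drawn in matplotlib 3.10.9.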

Additional observations from a re-analysis of the deposited data

How the results depend on the processing

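With 1 library per condition, intervals and p-values cover counting error only, and no replicate could be left out. No paired analysis was possible because each group has 1 library. No alternative tried (pseudocount, filter, scaling, length, threshold of 0.5) brought a shelterin or CST gene past its threshold. All 70 recomputed log2 ratios of the 10 genes stayed inside the counting interval. This count is a weak check, since a change of filter leaves each ratio as it was. A change of pseudocount or centring moves genes at these levels very little. Terf1, Tinf2, Pot1a, Ctc1, Obfc1 and Ten1 were below 0, and Terf2 and Terf2ip above it, under every scaling and length setting tried. Acd reached 0.078 with the length trend removed (7 of the 10 lower, 3 higher), and Acd and Pot1b turned with rescaled sums (6 lower, 4 higher). The median of the 10 ranged from -0.096 to -0.058.

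The count of intervals on 1 side of 0 dropped from 4 to 2 (Terf1 and Pot1a) with 99% intervals, and to 2 with the adjusted p. Settings chosen after seeing the data gave 3 with the length trend removed (without Tinf2) and 3 with rescaled sums (Terf1 and Pot1a lower, Terf2 higher), and 4 with full gene lengths or centring. The log2 ratio of the summed CST reads was -0.055 with rescaled sums, also chosen after seeing the data, and its interval then included 0. All genes past the threshold numbered 112, and 45 with 1 FPKM added, 513 with no filter, 17 with a mean of at least 5 FPKM and 573 at the threshold of 0.5. With no filter, 1 telomerase gene, Terc, passed the threshold.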

Other observations

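The table's own gene ontology terms give a wider view of telomere genes, a list drawn up after the data were seen. A term that contains the letters telomer, which takes in telomerase terms as well, is carried by 71 genes. Among them are 9 of the 10 shelterin and CST genes, and Tinf2 carries none. Of the 62 others, 54 reached 1 FPKM in a library, 34 with a higher and 20 with a lower value in PB-TERRA and with a median log2 ratio of 0.04 beside -0.10 for the shelterin and CST genes. The exact binomial test on the reads called 14 of these higher and 5 lower at an adjusted p of at most 0.05 (13.9% and 12.9% of all genes). Among these 54, a predicted gene with no standard symbol had the highest log2 ratio, 0.57 (2.83 and 4.24 FPKM). Myc, a transcription factor, rose from 56.25 to 68.55 FPKM (log2 ratio 0.29, exact test, adjusted p = 7.72e-15), and Thoc2, of the THO complex that packages mRNA for export, 17.01 and 19.58 (0.20, adjusted p = 1.49e-07). Thoc6, of the same complex, had 38.20 and 32.35 FPKM (-0.24, exact test, adjusted p = 0.00056), and Telo2, which stabilises kinases related to ATM, 9.54 and 8.17 (-0.22, adjusted p = 0.00784). The lowest of the 54 was Zscan4f, at 1.42 and 0.60 FPKM. These genes were named after their values were seen and are not in each case the next in order, since Pold4, a polymerase delta subunit, stood at 0.25 between Myc and Thoc2 (exact test, adjusted p = 0.44).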
